A study of Mus musculus with 4 samples.

Results

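Each cytosolic ribosome is built from ribosomal RNA and a set of ribosomal proteins, those of the large subunit (Rpl genes) and those of the small subunit (Rps genes). Their mRNAs are among the most abundant of most cells, and nearly all begin with a 5′ terminal oligopyrimidine (TOP) tract, a C followed by a run of pyrimidines through which the mTORC1 kinase and the RNA-binding protein Larp1 set their translation. Several subunit proteins have a paralogue encoded by a second gene, such as Rps27l beside Rps27, and some members have roles outside the ribosome: Rpl11 binds Mdm2 and so links ribosome assembly to p53, and Rpl13a takes part in a complex that silences inflammatory mRNAs in monocytes.

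Genes were taken whose symbol is Rpl or Rps followed by a number, or is Rplp0, Rplp1, Rplp2 or Rpsa, without the Rps6k kinases, the ribosomal protein binding gene Rps19bp1 and symbols with -ps. Where a gene had more than 1 probe set, the brightest on average stood for it. The rule gave 49 of the 18194 genes that have a probe set of their own. They were 22 large subunit genes, 21 small subunit genes and 6 paralogues (Rpl22l1, Rps27l, Rpl7l1, Rps4l, Rpl39l and Rpl3l). RefSeq holds 88 protein-coding mouse genes that match the rule, and 48 of them are among the 49. Of the 40 that are not, 31 are named only on probe sets annotated to several symbols, and 9 on no probe set. Rpl3, Rpl5, Rpl10, Rpl36a and Rplp1 are in this way without a value of their own.

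The arrays were 4 Affymetrix Mouse Genome 430 2.0 chips, each hybridised with RNA from CD11b+ splenic monocytes of 1 genotype and 1 Ly6C gate. WT mice were on the C57BL/6 background and are called control littermates. The knockout (KO) mice, B6(FVB)-Mir146tm1.1Bal/J, lack miR-146a, a microRNA that limits NF-kB signalling in myeloid cells. Of the gates, Ly6Chigh holds classical monocytes, which enter inflamed tissue, and Ly6Clow holds patrolling monocytes, which largely derive from them. Cells of several mice were pooled for each array, which leaves 1 array for each genotype and gate. There was no replicate, and no p-value is given for a comparison of 2 arrays. The protocol can be read as saying that the spleens of the genotypes went through different red cell lysis buffers, in which case buffer and genotype cannot be told apart. Where 4 signals of a gene are given, the WT arrays come first and the KO arrays after them, each with Ly6Chigh before Ly6Clow.

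The labels were checked first. The probe set for the sort antigen, annotated to Ly6c1 and Ly6c2, had signals of 7083, 169, 6505 and 182, high on both Ly6Chigh arrays. Ccr2, the chemokine receptor of classical monocytes, had a log2 ratio of signals, Ly6Clow over Ly6Chigh, of −2.36 in WT and −2.65 in KO. All 9 monocyte marker genes in the table were Present, the array software's call for a detected probe set, on every array. The deletion itself could not be checked, as no probe set is named for Mir146. Among marker genes of other cells, the summed signal of 11 B cell genes was 516, 1202, 371 and 737, that of 11 neutrophil genes was 3805, 1974, 2451 and 1585, and 0 of 5 erythroid genes were Present on any array. Cd79b, Ms4a1 and Bank1 of the B cell list and S100a8, S100a9, Csf3r and Lcn2 of the neutrophil list were Present on all 4 arrays, and Pax5, Cr2, Camp and Ltf were Absent on all 4. The share of probe sets called Present was 46.8% to 48.6%. The ratio of 3′ to 5′ signal was 1.20 to 1.42 for actin and 0.894 to 1.12 for Gapdh. The 5′ probe set for 18S ribosomal RNA had signals of 3562, 984, 1583 and 1366, highest on the WT Ly6Chigh array.

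The tract that defines TOP mRNAs can be read at the annotated starts of the genes. Promoters of 43 of the 49 genes were in the RefSeq table, on build GRCm38.p6. A C followed by at least 4 pyrimidines lay exactly at the annotated start of 8 of the 43, or 18.6%, against 3.01% of 27025 genes. It began within 5 bases of the start in 20 of 43, or 46.5%, against 21.2% of all. The 30 bases shown for each gene span the annotated start, with 15 bases before it, and capitals mark the longest pyrimidine run near the start that begins with C. They are given for 4 of the genes with the brightest probe sets, which differ in their starts, and for 3 genes whose ratios are described further on.
Rpl13a (chr7:45128731-45128760, minus strand): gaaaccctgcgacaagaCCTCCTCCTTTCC
Rplp2 (chr7:141447636-141447665, plus strand): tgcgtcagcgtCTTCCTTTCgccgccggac
Rpl38 (chr11:114668565-114668594, plus strand): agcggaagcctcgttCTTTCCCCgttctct
Rps28 (chr17:33824548-33824577, minus strand): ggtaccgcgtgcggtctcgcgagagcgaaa
Rps6 (chr4:86857353-86857382, minus strand): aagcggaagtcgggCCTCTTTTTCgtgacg
Rpl22l1 (chr3:28805493-28805522, plus strand): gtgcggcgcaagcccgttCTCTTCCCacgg
Rps27 (chr3:90213634-90213663, minus strand): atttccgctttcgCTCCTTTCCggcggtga
In the Rpl38 sequence the run starts at the annotated first base, in those of Rpl13a and Rpl22l1 it starts a few bases later, and in those of Rplp2, Rps6 and Rps27 it starts 4, 1 and 2 bases earlier. Rps28 had no such run in this window. Short motifs were also counted in the 250 bases before and 50 bases after the start, on both strands: CCGGAA, the core bound by Ets factors, was in 28 of 43 promoters (65.1%, against 16.7% of all genes), and GGGCGG, the core of an Sp1 box, in 25 (58.1%, against 38.2%). TATAAA on the transcribed strand was in 5 (11.6%, against 9.77%). A match of letters is not a bound site.

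The 49 genes fell into a bright group and a spread of dim ones. Of them, 45 were Present on all 4 arrays and 47 on at least 1. Rps16 and Rpl3l, the latter a paralogue known from skeletal muscle and heart, were Absent on all 4. Rps16 rests on 1 probe set of its own, with signals of 0.4, 2.3, 0.4 and 4.5. Whether that probe set reports the mRNA was not tested. The mean signal was 4000 or more for 34 genes, 17 of the large and 17 of the small subunit, between 1000 and 4000 for 3, and under 1000 for 12. The brightest, Rps29, gave the highest signal of any gene on every array, with 9879, 12825, 8829 and 12277. Both Ly6Clow arrays read above both Ly6Chigh arrays for it. Rplp0, the stalk protein often used as a reference gene, had signals of 7640, 7889, 6557 and 7448. Rpsa, which also serves as a laminin receptor, had 7734, 7701, 6736 and 6985. In both genes the KO arrays lay below the WT arrays. Signals of different probe sets cannot be set against each other as amounts of mRNA.

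**Figure D1:**
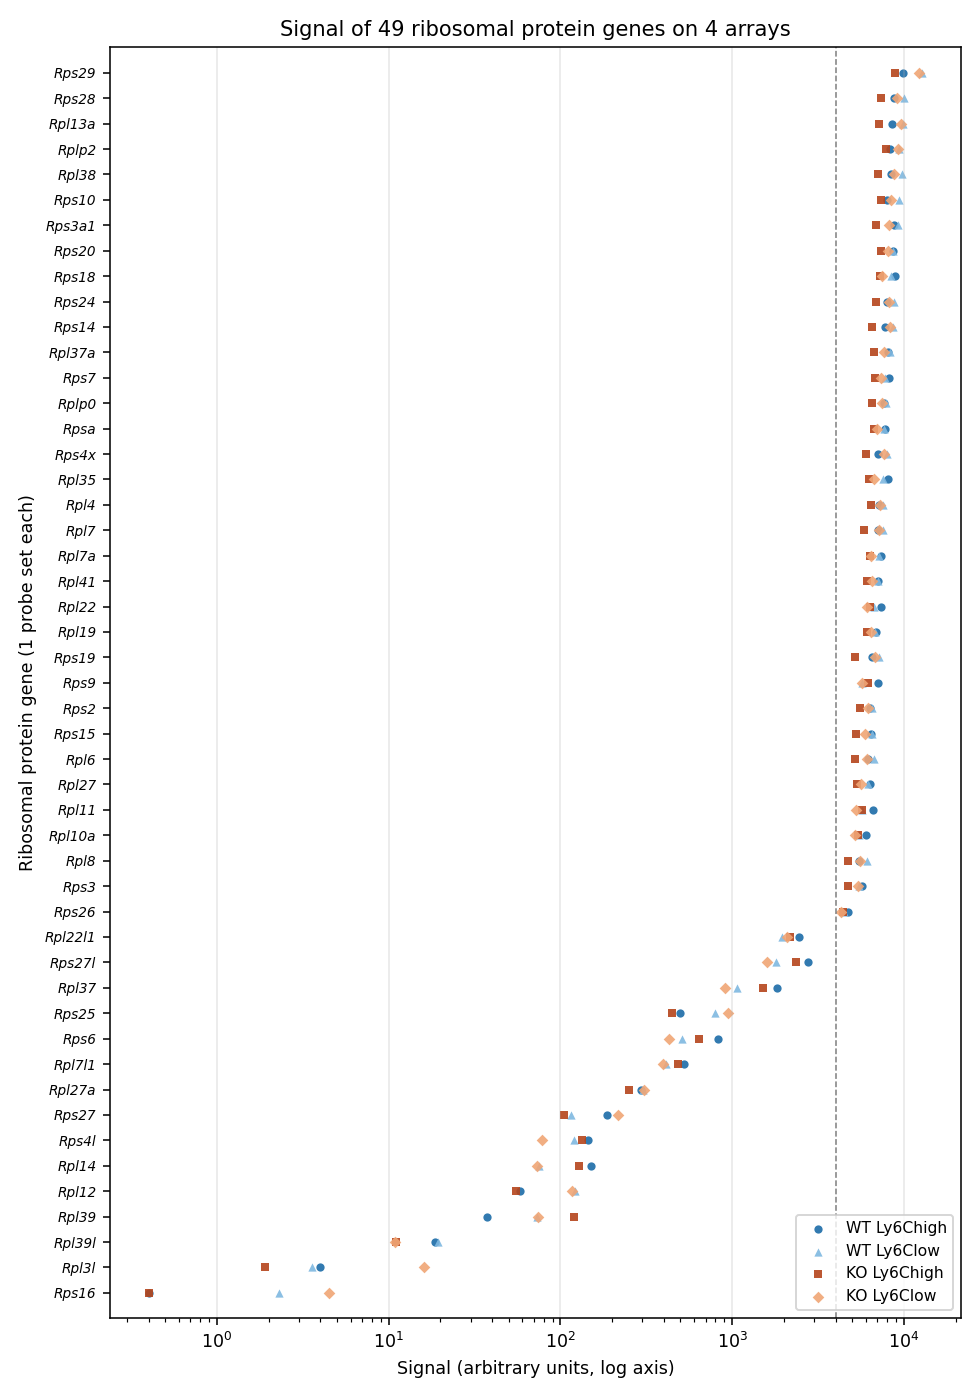
Signal of the representative probe set of each of the 49 genes (horizontal log axis, arbitrary units) on the 4 arrays, 1 point an array, ordered by mean signal. The dashed line is at 4000: 34 genes lie to its right, where the 4 points of a gene sit close together, and the dim genes to its left spread wider.

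The dim group was not made of paralogues alone. Of the 12 genes under 1000, 8 encode subunit proteins rather than paralogues, among them Rps6, the target of the S6 kinases, and 8 are also named on probe sets shared with another symbol. Those shared probe sets numbered 22, and 14 of them had a mean signal of 4000 or more. The shared probe sets may report the other symbol, and the values of the dim genes below are those of their own probe sets.

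The question of the genotype comparison is what loss of miR-146a changes in each subset. In Ly6Chigh monocytes the ribosomal protein genes were slightly and almost uniformly lower in KO on the deposited scale, a direction that turned when ratios were set relative to the cre spike-in. The log2 ratio of signals, KO over WT, was below 0 for 46 of the 47 genes Present on at least 1 of the 2 arrays, where 51.7% of all 10403 such genes were below 0. The median over the 47 genes was −0.22, against −0.01 over all genes. The median was −0.22 for the large and −0.23 for the small subunit. Over the 34 bright genes the ratio was below 0 in 34 of 34, between −0.36 and −0.08, with an SD of 0.0635 among genes.

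Rps19, a small subunit protein mutated in Diamond-Blackfan anaemia, had signals of 6556, 7160, 5161 and 6809. Its KO Ly6Chigh signal was the lowest of the 4 and gave a ratio of −0.35 in Ly6Chigh. Rpl35 of the large subunit had 8080, 7512, 6302 and 6743, with both KO arrays lowest, and a ratio of −0.36. Rps3a1 had 8738, 9284, 6925 and 8222, and a ratio of −0.34. Rpl13a had 8536, 9939, 7142 and 9636, and a ratio of −0.26. In each the KO Ly6Chigh array was the lowest.

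The authors' deposited table, which compares arrays in pairs, called 26 of the 47 genes lower in KO Ly6Chigh and 0 higher, where it called 7.82% of all genes lower and 7.59% higher. Its signed fold changes for the 26 ran from −1.32 to −1.15. Most members are bright, and the share called among other genes of like brightness was not counted. With a log2 ratio of 0.5 or more as the threshold, and a signal of at least 100 with a Present call on the brighter array, 1 gene was lower (Rps27, background 1.79%) and 1 higher (Rpl39, background 2.43%). At 2-fold Rpl39 was the 1 gene higher and 0 were lower, where 0.163% and 0.106% of all genes were.

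Other features of like brightness were lower on the KO Ly6Chigh array as well. Among the 178 other genes at 4000 or more, 163 were below 0 (91.6%), with a median of −0.16 and an SD of 0.114. Over other genes the median ratio went from 0.06 below a signal of 100 to −0.01 between 100 and 1000, −0.06 between 1000 and 2000, −0.11 between 2000 and 4000 and −0.16 above. The phage cre transcript, which is added to each sample in a fixed amount before hybridisation, had a mean ratio of −0.26 over 4 probe sets. The 3′ probe set with the highest cre signal had 8799, 10717, 7574 and 9873, with each KO array below the WT array of its subset. Of members of that brightness, Rps28 had a like course with 8811, 10040, 7370 and 9172. Rps18 had 8915, 8396, 7254 and 7460, without the rise in Ly6Clow in WT. The bacterial transcripts added at lower amounts were lower too, with mean ratios of −0.44 for bioB, −0.45 for bioC and −0.32 for bioD, at signals where other genes had medians between −0.11 and −0.01. When every ratio was set relative to cre, the median of the 47 genes was 0.035 and 13 of 47 were below 0, while the median of all genes then stood at 0.25. Relative to the other genes at 4000 or more the median was −0.064. The direction for the ribosomal protein genes in Ly6Chigh thus depended on the scale. What part the array scale has in the ratio was not tested.

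**Figure D2:**
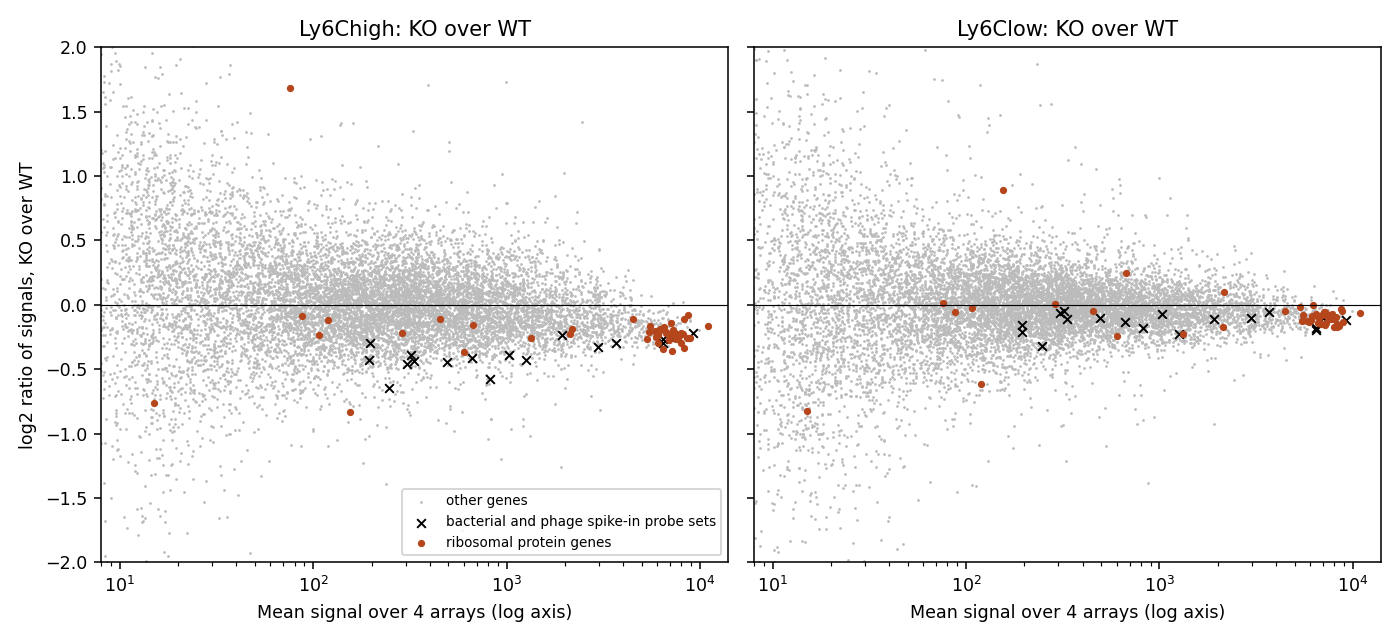
log2 ratio of signals, KO over WT, against the mean signal over the 4 arrays (log axis) in Ly6Chigh (left) and Ly6Clow (right), 1 point a gene Present on at least 1 of the 4 arrays, and crosses for the bacterial and phage spike-in probe sets (bioB, bioC, bioD, cre); points beyond ±2 or below a signal of 8 are outside the frame. In Ly6Chigh the bright ribosomal protein genes lie between −0.36 and −0.08, beside the cre crosses and within the downward drift of other bright genes; relative to cre their median was 0.035.

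In Ly6Clow monocytes the same comparison gave smaller ratios. Of 47 genes measured, 42 were below 0, where 54.6% of 10191 genes were, with a median of −0.09 against −0.03 over all genes. Among the 34 bright genes the ratio was below 0 in 34, with a median of −0.10. The 178 other genes at 4000 or more had a median of −0.08 with 146 below 0, and cre had a mean of −0.15. Relative to cre the median turned to 0.061, and relative to the other bright genes it was −0.013. The authors' deposited table called 0 of the 47 genes lower and 0 higher, against 3.84% and 2.36% of all genes. At 0.5 or more, Rps27 was higher (background 1.08%) and Rps4l lower (background 1.01%). At 2-fold 0 members were higher and 0 lower, against 0.128% and 0.0687% of all genes. Whether the genotype ratio differs between subsets was not tested, since each rests on a single pair of arrays.

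Some members below 4000 also had a lower KO signal in both subsets. Rps6 had 832, 508, 645 and 428, a ratio of −0.37 in Ly6Chigh and −0.25 in Ly6Clow. Rpl37 of the large subunit had 1816, 1070, 1517 and 913, ratios of −0.26 and −0.23. Rps27l, a p53-inducible paralogue of Rps27, had 2762, 1800, 2364 and 1599, ratios of −0.22 and −0.17. For these genes each KO array was below the WT array of its subset, by less than 0.5. That is on the deposited scale, where cre had mean ratios of −0.26 in Ly6Chigh and −0.15 in Ly6Clow. In limma's additive model of genotype and subset, which uses all 4 arrays and has 1 residual degree of freedom, 0 of 11100 genes passed an adjusted p of 0.05 for genotype in either direction. At an unadjusted p under 0.05 there were 700 genes (6.31%), of which 1 was a ribosomal protein gene, Rpl39l, a testis-expressed paralogue. With limma's variance allowed to follow mean signal, 28 of 47 members and 1480 of 11100 genes had an unadjusted p under 0.05. Both counts are on the deposited scale and depend on how the variance is shared. Rpl39l had signals of 18.7, 19.3, 11.0 and 10.9, all near the floor of detection, and an estimate of −0.79 with an SE of 0.117 and an adjusted p of 0.743 in limma.

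Between subsets the bright ribosomal protein genes were about level in WT on the deposited scale only. Ly6Clow over Ly6Chigh, the median over 47 genes was 0.00 in WT, with 22 below 0 and 25 above (49.3% and 50.6% of 10535 genes were). In KO it was 0.16, a sign that turned under other scalings, with 14 below and 33 above (50.8% and 49% of 10411 genes). Over the 34 bright genes the medians were 0.05 and 0.18, against 0.18 and 0.26 over the other genes at 4000 or more, and 0.28 and 0.39 for cre. Relative to cre the median of the 47 genes was −0.28 in WT and −0.23 in KO, relative to the other bright genes −0.18 and −0.10, and after quantile normalization of the arrays −0.090 in KO.

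The order of the bright genes was shared by the genotypes, which rest on separate arrays. Over the 34 genes at 4000 or more, Pearson's r between the subset ratio in WT and in KO was 0.911 and Spearman's rho 0.903, a description across genes, which share arrays and brightness and are not independent. It was 0.972 over the 178 other genes at 4000 or more. Rps29 stood at the upper end, with 0.38 in WT and 0.48 in KO. Rps10 had 0.23 in WT and 0.20 in KO, Rpl13a 0.22 and 0.43, Rpl38 0.22 and 0.31, and Rps19 0.13 and 0.40. At the lower end, Rps9 had signals of 7081, 5736, 6210 and 5725 and ratios of −0.30 and −0.12, and Rpl11 had 6604, 5711, 5730 and 5233 and ratios of −0.21 and −0.13. Bright genes with a pyrimidine run within 5 bases of the start had a median of 0.02 in WT and 0.13 in KO over 12 genes, and those without had 0.00 and 0.18 over 17.

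**Figure D3:**
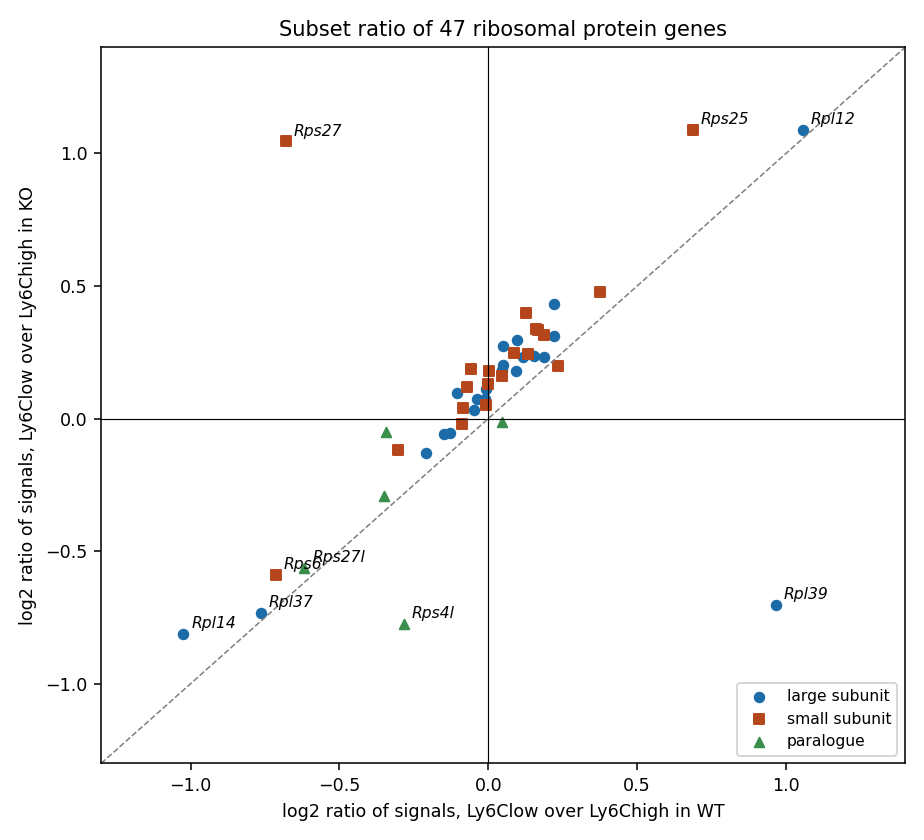
log2 ratio of signals, Ly6Clow over Ly6Chigh, in WT (horizontal) and in KO (vertical) for the 47 genes Present on at least 1 array, by subunit or as paralogue; the dashed line marks equal ratios, and genes at 0.5 or more in either genotype are named. Most genes lie near 0 and along the line, 6 of the named genes lie far out along it, and Rps27 and Rpl39 lie in quadrants where the genotypes have opposite signs.

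Few members lay beyond 0.5 in the subset comparison, in shares at or below those of all genes except for the lower genes in KO. In WT, 2 of 47 were higher in Ly6Clow (Rpl12 and Rps25, background 11.1%) and 5 lower (Rpl14, Rpl37, Rps6, Rps27 and Rps27l, background 13%). In KO, 3 were higher (Rps25, Rpl12 and Rps27, background 10.2%) and 6 lower (Rpl14, Rps4l, Rpl37, Rpl39, Rps6 and Rps27l, background 12.5%). The authors' deposited table called 4 higher and 6 lower in WT (background 18.6% and 21.7%) and 8 higher and 5 lower in KO (background 16.3% and 21.8%). At 2-fold there were 1 higher (Rpl12, background 3.65%) and 1 lower (Rpl14, background 4.99%) in WT, and 3 higher (Rps25, Rpl12 and Rps27, background 3.69%) and 0 lower (background 5.09%) in KO.

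Rpl12, a protein at the base of the ribosomal stalk, had signals of 58.3, 121, 55.0 and 117. Both Ly6Clow arrays were about level and above both Ly6Chigh arrays, 2.08-fold in WT and 2.13-fold in KO. In limma's additive model it rose by 1.07 on the log2 scale with an SE of 0.116 and an adjusted p of 0.048, and was the only member among the 784 genes called for subset (2.94% of 11100 higher and 4.13% lower, 35% at an unadjusted p under 0.05, where 7 members stood). The call was lost under quantile normalization and with no Present filter, where 0 members were called, and under centring on cre, where 0 were called higher and 4 lower. The model assumes the same subset difference in both genotypes. Its error combines the gene's departure from that with a variance shared over all genes, and is not a spread among replicates. For Rpl12 the departure was small, with log2 ratios of 1.06 in WT and 1.09 in KO. Most of its SE thus came from the shared variance.

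Rps25, a small subunit protein used in some internal initiation, had 495, 797, 444 and 945, with both Ly6Clow arrays above both Ly6Chigh arrays. Its ratios were 0.69 in WT and 1.09 in KO, and its limma estimate was 0.89 with an adjusted p of 0.0814. On the other side, Rpl14 had 152, 74.6, 129 and 73.4, ratios of −1.02 and −0.81 and an adjusted p of 0.0616 in limma. Both Ly6Clow signals were under 100, where the brighter Ly6Chigh arrays carry the call. Rpl37 had ratios of −0.76 and −0.73 with an adjusted p of 0.0673 in limma, and Rps6 had −0.71 and −0.59 with 0.0813. For all 5 genes the sign stayed under quantile normalization and under centring on cre. All 5 are among the members with the largest subset ratios, so a stable sign is no separate support. The authors' deposited table gives Rpl37 no change between subsets in either genotype. It calls Rpl12 and Rps25 higher and Rpl14 and Rps6 lower in both. The probe sets used for all 5 have mean signals below 4000. Further probe sets of members below 4000 were mostly lower in Ly6Clow, as described further on.

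Of 5 paralogues measured, 4 were below 0 in Ly6Clow over Ly6Chigh in WT and 5 in KO, where 49.3% and 50.8% of all genes were, with medians of −0.34 and −0.29. The KO count includes Rpl39l at −0.01 and Rpl22l1 at −0.05. Rps27l was lower by 0.5 or more on all 3 of its own probe sets in both genotypes, with ratios of −0.62, −0.71 and −0.63 in WT and −0.56, −0.67 and −0.64 in KO, and an adjusted p of 0.0873 in limma. Rpl22l1, the paralogue of Rpl22, had 2467, 1947, 2161 and 2088, with ratios of −0.34 in WT and −0.05 in KO. Rpl22 itself had 7360, 6740, 6348 and 6113, with ratios of −0.13 and −0.05. Rpl7l1, which works in ribosome assembly in the nucleolus, had 523, 410, 485 and 396, with both Ly6Clow arrays below both Ly6Chigh arrays. Rps4l, which RefSeq does not list as protein-coding, had 145, 119, 134 and 78.1, lowest on the KO Ly6Clow array.

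Rps27 and Rpl39 did not follow either factor. Rps27, a zinc finger protein of the small subunit, had 186, 116, 104 and 215. WT Ly6Chigh and KO Ly6Clow were the high arrays, so that the genotype ratio was −0.83 in Ly6Chigh and 0.89 in Ly6Clow and the subset ratio −0.68 in WT and 1.05 in KO. The authors' deposited table gives Rps27 no change between genotypes and calls it higher in Ly6Clow in both, with a fold of 1.32 each time, which in WT is against the direction of its signals. Rpl39, the small protein at the exit tunnel, had 37.4, 73.1, 121 and 74.0, high on the KO Ly6Chigh array and low on the WT Ly6Chigh array, with a genotype ratio of 1.69 in Ly6Chigh and 0.02 in Ly6Clow. The authors' deposited table gives Rpl39 no change in any of the 4 comparisons. Rps27 and Rpl39 each rest on a single dim probe set.

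Probe sets of the same gene could also part. Over 16 genes with more than 1 bright probe set, the median SD between probe sets was 0.0417 for KO over WT in Ly6Chigh, with a highest of 0.0846, and 0.0568 for the subset ratio in WT, with a highest of 0.201. The SD among the 34 bright genes was 0.143 for the latter. The bright probe sets of Rps18 had subset ratios in WT of −0.23, 0.16 and −0.09, which differ in sign. The further probe sets of members at 4000 or more, 28 in number, had a median subset ratio of 0.04 in WT and 0.19 in KO. Those below 4000 and Present on all arrays, 19 probe sets of 13 genes, had medians of −0.63 and −0.67. With no signal minimum, 12 of the 19 were lower by 0.5 or more and 0 higher in WT, and 12 were lower and 2 higher in KO. Of the 12 with a mean signal of at least 100, 10 were lower and 0 higher in WT, and 8 lower and 1 higher in KO, beside 13% and 12.5% of all genes lower and 11.1% and 10.2% higher.

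Rpl13a has examples of each kind. A bright probe set of Rpl13a other than the representative had 5204, 6119, 4542 and 5767 and ratios of 0.23 and 0.34, while a dimmer one had 1819, 718, 1744 and 736 and ratios of −1.34 and −1.24. Dim probe sets of Rps3 (194, 86.5, 171 and 85.0) and of Rps9 (258, 160, 264 and 170) were likewise lower on both Ly6Clow arrays, with ratios of −1.17 and −1.01 for Rps3 and −0.69 and −0.64 for Rps9. Their bright probe sets had −0.06 and 0.19 for Rps3 and −0.30 and −0.12 for Rps9. Which transcripts the dim probe sets report was not tested.

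The 110 probe sets annotated to a ribosomal protein gene and another symbol were read as a group. For KO over WT in Ly6Chigh their median was −0.21, with 90 of 105 measured below 0, and for KO over WT in Ly6Clow −0.09, with 89 of 106. Of all genes 51.7% and 54.6% were below 0, and of other genes at 4000 or more 91.6% and 82%. Cre had mean ratios of −0.26 and −0.15. Their subset medians on the deposited scale were 0.05 in WT and 0.17 in KO, against 0.28 and 0.39 for cre.

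Other genes of the translation machinery were set beside them. A list of further genes with TOP mRNAs, mostly translation factors but also Fau, the precursor of a small subunit protein, had a median of −0.18 for KO over WT in Ly6Chigh, with 16 of 16 below 0, and −0.09 in Ly6Clow; 0 of 16 reached 0.5 in either subset. Eef1a1, the elongation factor that brings aminoacyl-tRNA, had 8270, 10024, 7620 and 9443, a course like that of Rps29. By subset these genes split: Eef2, the translocation factor, had 3921, 2480, 3343 and 2286 and ratios of −0.66 in WT and −0.55 in KO, and Btf3, of the nascent chain complex, had −0.71 and −0.62, while Hnrnpa1 had 0.38 and 0.53. Initiation factors, 46 measured, had medians of −0.12 and −0.07 for KO over WT in Ly6Chigh and Ly6Clow, and −0.17 and −0.10 by subset in WT and KO.

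Mitochondrial ribosomal proteins, which are nuclear-encoded and build the separate ribosome of mitochondria, were mostly lower in Ly6Clow. Of 76 measured, 66 were lower in Ly6Clow in WT and 56 in KO, with medians of −0.38 and −0.30 on the deposited scale, and 26 and 17 were lower by 0.5 or more (13% and 12.5% of all genes were) against 1 and 1 higher (11.1% and 10.2%). Mrpl33 had 2672, 1078, 1824 and 998, ratios of −1.31 and −0.87. Mrpl58, a peptidyl-tRNA hydrolase, had 906, 389, 735 and 341, ratios of −1.22 and −1.11. In both genes the Ly6Clow arrays lay below the Ly6Chigh arrays. For KO over WT in Ly6Chigh, 69 of the 76 were below 0 with a median of −0.19. Those with a mean signal of 100 to 1000 had a median of −0.19 over 68 genes, with 89.7% below 0, against 0.00 and 50.7% over 5281 genes of that range that belong to neither ribosome. By subset the 68 mitochondrial genes of that range had medians of −0.38 in WT and −0.29 in KO, with 60 and 51 below 0. The 7 cytosolic ribosomal protein genes of that range had medians of −0.35 and −0.29, with 5 and 4 below 0. These 7 were widely spread, from −1.02 to 0.69 in WT and from −0.81 to 1.09 in KO. No difference between the cytosolic and mitochondrial genes was tested, and most cytosolic genes are far brighter.

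**Figure D4:**
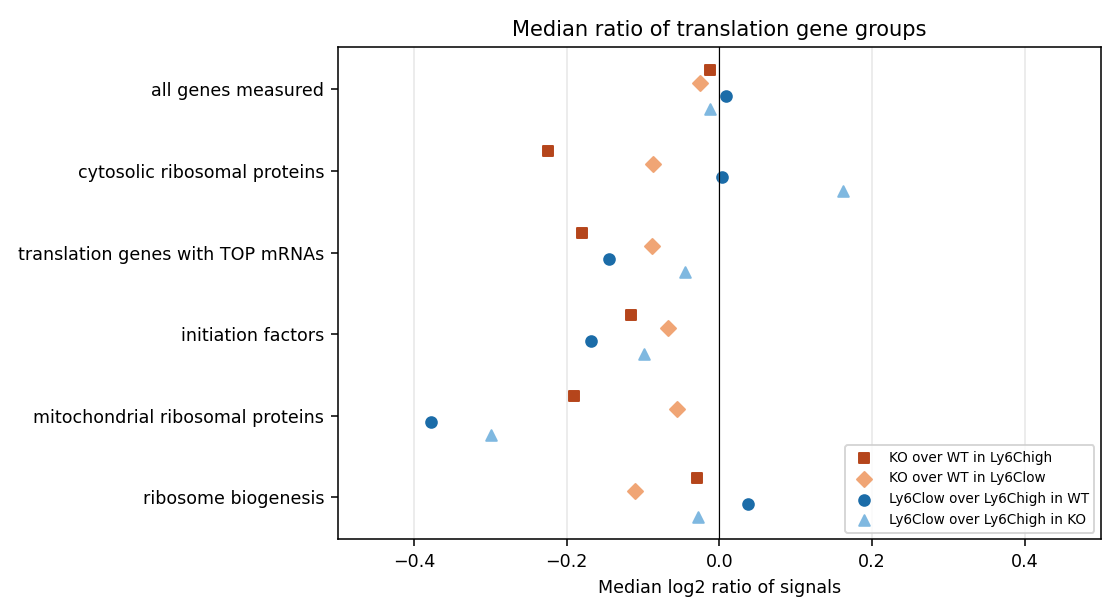
Median log2 ratio of signals (horizontal axis) over all genes measured, the cytosolic ribosomal protein genes and 4 groups of translation genes, for the 4 comparisons; each point is 1 median of 1 pair of arrays and carries no error. By subset the mitochondrial ribosomal proteins are at −0.38 in WT and −0.30 in KO and the cytosolic genes at 0.00 and 0.16 (−0.28 and −0.23 relative to cre). Most mitochondrial genes have signals of 100 to 1000. The 7 cytosolic genes in that range have medians of −0.35 and −0.29, with 5 below 0 in WT and 4 in KO, and spread from −1.02 to 0.69 and from −0.81 to 1.09.

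Genes of ribosome assembly had medians of −0.03 and −0.11 for KO over WT in Ly6Chigh and Ly6Clow, and 0.04 and −0.03 by subset, over 43 genes. Among them Fbl, the methyltransferase of box C/D particles, had 856, 445, 844 and 529, lower on both Ly6Clow arrays, while its partner Nop56 had 328, 617, 257 and 550, higher on both. Of mTORC1 genes, Larp1 had 427, 395, 613 and 384, highest on the KO Ly6Chigh array with a genotype ratio of 0.52 there and −0.04 in Ly6Clow. The mTORC1 group as a whole had medians of 0.12 and 0.00 for KO over WT. In the Myc network, which drives ribosomal protein gene transcription, Myc itself was dim, with 35.3, 14.9, 35.2 and 9.2. The antagonist Mxi1 had 622, 1284, 501 and 1193, higher on both Ly6Clow arrays. The antagonists Mxd4, with 259, 124, 186 and 129, and Mxd1, with 120, 76.0, 156 and 57.9, were lower on both. Of 10 network genes measured, 5 were below 0 in Ly6Clow over Ly6Chigh in WT and 6 in KO.

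Summed over 7 platelet genes the signal was 351, 532, 422 and 828, and over 8 genes of conventional dendritic cells 943, 325, 1064 and 379. Of these, 3 platelet genes and 2 dendritic cell genes were Present on all 4 arrays, and Xcr1 and Treml1 were Absent on all 4. Cell cycle genes had subset medians of 0.69 in WT and 0.69 in KO. Of 15 measured in WT 10 were above 0, and of 14 in KO 12 were, where 50.6% and 49% of all genes were. The list was split: Mcm6 had 1.84 in WT and 1.90 in KO, while Mki67 had −1.42 and −1.67, and Aurkb was below 0 in both as well. The summed signal of B cell genes was higher on each Ly6Clow array than on the Ly6Chigh array of its genotype. The summed signal of the neutrophil list was lower on the KO than on the WT Ly6Chigh array. Of 6 of its genes measured in that comparison, 4 had a ratio below 0 and 2 above. S100a8 went from 1823 in WT to 797 in KO, and Csf3r from 1002 to 1129. Their part in the ratios of the ribosomal protein genes was not tested. In bulk RNA of this kind a change in the mix of cells and a change of mRNA per cell cannot be told apart.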

How the data were processed

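Total RNA of sorted, pooled splenic monocytes was hybridised to 4 arrays, per the labels' protocols. The deposited signal intensity values are linear and scaled to a common trimmed mean on every array, and the detection p-values and calls were deposited beside them; Expression Console 1.2.1 and GCOS are named in the submitters' notes. The authors' signed fold change score and change call per pair of arrays were deposited without replicates. Nothing was normalized again: log2 ratios of the signals were taken over genes with a Present call on at least 1 array of the pair. Array precision is limited by 1 array a group. A gene was called at a log2 ratio of 0.5 or at 2-fold, provided that the brighter array had a Present call and a signal no lower than 100. limma 3.58.1 in R 4.3.3 fitted genotype and subset over 11100 genes Present on at least 1 array, with Benjamini-Hochberg adjustment. The model assumes that the subset difference is the same in both genotypes. Its p-values rest on the departure of these arrays from that, which may be technical, moderated toward a variance shared over all genes. They do not rest on a spread within a group. The script was tested on simulated data. Symbols were updated through RefSeq gene IDs, and probe sets with several symbols were kept apart. Named genes are the brightest and dimmest members, those with the largest ratios in each comparison, and a fixed set of subunit proteins and paralogues; for other lists, the genes with the largest ratios and some known ones. Rps9 and Rps3 were chosen after their values were seen. The members and lists were chosen with earlier results of these data known. Alternatives were quantile normalization, median centring, an offset of 32, the mean of all probe sets, probe sets without a letter form, no signal minimum, and, chosen after seeing the data, centring on cre or on other genes at 4000 or more and only members at 4000 or more.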

Additional observations from a re-analysis of the deposited data

Results flagged for a closer look

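Rps27 changed sign between the groups. Its log2 ratio of signals, KO over WT, was −0.83 in Ly6Chigh and 0.89 in Ly6Clow, and Ly6Clow over Ly6Chigh it was −0.68 in WT and 1.05 in KO. The difference between the groups was not tested, as each ratio rests on 1 pair of arrays and on 1 dim probe set.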

How the results depend on the processing

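No paired analysis was possible because each group has 1 array and the arrays carry no shared replicate number. Leaving out an array leaves the additive model without residual degrees of freedom, so no value was had that way.

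Median ratios, counts and named genes were recomputed: of the medians and counts 107 values kept their direction and size, 41 moved and 6 turned their sign, leaving aside the subset median in WT, which was near 0. Of 788 single-gene ratios 134 changed sign, 57 of them under cre centring, and 0 of these were at 0.5 or more as reported. For KO over WT in Ly6Chigh the median of −0.22 became −0.059 under quantile normalization, 0.035 under cre centring and −0.064 under centring on other bright genes, and in Ly6Clow 0.061 under cre and −0.013 under bright-gene centring. Counts below 0 became 19 of 22 in Ly6Chigh and 15 of 23 in Ly6Clow with probe sets without a letter form, and 13 and 10 under cre centring. For Ly6Clow over Ly6Chigh in WT the median became −0.28 under cre and −0.18 under bright-gene centring, with 34 below 0 under quantile normalization, 13 of 23 without a letter form, 43 under cre, 38 under bright-gene centring and 14 of the 34 bright members. In KO it turned to −0.090 under quantile normalization, −0.13 without a letter form, −0.23 under cre and −0.10 under bright-gene centring, with 30, 41 and 35 below 0 under quantile, cre and bright-gene centring, and 5 of the 34 bright members. At 0.5, the bright members gave 0 in either direction in all 4 comparisons. In Ly6Chigh, KO over WT, 3 were lower with the mean of probe sets and 2 with no signal minimum. In Ly6Clow, 0 were lower with the offset or cre, 2 with the mean or no minimum, and 3 higher with the mean. In WT, cre centring gave 1 higher and 9 lower. limma called 1 member for subset, and 0 with quantile normalization or no Present filter, 9 with the offset, 21 with a trend on signal and 4, all lower, under cre centring; over all genes 784 became 619, 0, 4317, 4590 and 1444. For genotype the trend gave 3 members and 287 genes, and the offset 106 genes. Cre centring brought the median of all genes to 0.25, 0.12, −0.27 and −0.40, and bright-gene centring to 0.15, 0.05, −0.17 and −0.27 (KO over WT in Ly6Chigh and Ly6Clow, then the subset in WT and KO). The cause was not tested.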
